A study of Homo sapiens with 12 samples.

Results

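The 9 genes described are TUBG1 and TUBG2, which encode gamma tubulin, TUBGCP2 to TUBGCP6, which encode the proteins that arrange gamma tubulin into a ring, and TUBD1 and TUBE1, which encode delta and epsilon tubulin. They were chosen by gene family, and every probe set annotated to a single one of them was taken. This gave 19 of the 54675 probe sets on the array, for 9 of the 19775 genes that have a probe set of their own. Of these, 14 probe sets of 8 genes reached a log2 signal of at least 5 on at least 2 arrays and were tested, among 15030 probe sets that did so. Both probe sets of TUBGCP6 stayed below this level, as did 1 of the 3 probe sets of TUBGCP2, 1 of the 3 of TUBGCP3 and 1 of the 2 of TUBE1.

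The expression profiles came from HCT116, a human colorectal carcinoma cell line, synchronized by a double thymidine block, which stops cells as they enter S phase. All 12 cultures carried this block. After release, 4 cultures were given nocodazole, which takes microtubules apart and stops cells in mitosis, and were sampled at 7, 8, 9 and 10 h. The other 8 were given DMSO, the vehicle. They were sampled every 2 h up to 6 h, the start included, and hourly on to 10 h, and DMSO values below follow that order. Each condition had 1 Affymetrix U133 Plus 2.0 array, so no value has a replicate. The spread behind each test of the DMSO arrays is that of neighbouring times. For nocodazole against DMSO it is how much the difference varied between hours, so a difference that changes over the hours widens it. For the change of that difference it is the variation within each pair of hours. Whether neighbouring times or treatments differ beyond the error of repeated cultures cannot be read from these arrays.

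Gamma tubulin is the part of the tubulin family from which a new microtubule grows. TUBGCP2 and TUBGCP3 bind it in the small gamma tubulin complex, and several small complexes join with TUBGCP4, TUBGCP5 and TUBGCP6 into a ring that caps the microtubule's minus end at the centrosome and along the spindle. Delta and epsilon tubulin are rare relatives that are needed to make stable triplet microtubules in the wall of the centriole.

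The array medians over the tested probe sets were 8.90, 8.99, 8.39 and 8.28 at 7, 8, 9 and 10 h with nocodazole, and 8.59 to 9.13 with DMSO. Quantile normalization, which gives every array the same distribution, and centring of each array on its median were therefore run beside the values as deposited. The median difference between nocodazole and DMSO over all tested probe sets was -0.23 as deposited, -0.01 after quantile normalization and 0.10 after centring. Between 6 to 8 h and 0 to 4 h with DMSO it was 0.12, -0.05 and -0.15 on the same scales. The 18S rRNA probe sets averaged 8.32 at 4 h with DMSO and 3.55 to 4.05 on the other DMSO arrays. EPCAM, CDH1, KRT8, KRT18 and KRT19, the epithelial markers, had log2 signals of 10.39 to 14.83 on the brightest probe set of each. The second probe sets of CDH1 and KRT19 were at 4.36 to 7.23 and 2.35 to 4.15. Every probe set of PTPRC, CD3E, PECAM1 and COL1A2 stayed at or below 4.87. COL1A1, a collagen of fibroblasts, was at 7.75 to 8.60 on a probe set that may cross-hybridize, at 6.75 to 8.51 and 4.85 to 5.82 on 2 others, and at most at 5.01 on its last 2. Its part in the results was not tested. Of the phase markers, CCNE2, a cyclin of the G1/S transition, differed by -2.38 (SE 0.41) between 6 to 8 h and 0 to 4 h with DMSO, and PLK1, a mitotic kinase, by 2.30 (SE 0.39), with limma's adjusted p of 0.0241 for both.

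TUBG1 changed over the DMSO course, and TUBD1 had its highest DMSO signal at 6 h on 2 of its 3 probe sets. The 250 bases before the start of each gene (RefSeq, GRCh38.p14) are shown because these genes head the results below. Capitals mark the letters TTTGGCGC, as in a site for E2F factors, and the CCAAT box, which on the opposite strand reads ATTGG. The TUBG1 sequence is chr17:42609433-42609682 on the plus strand, and that of TUBD1 is chr17:59892944-59893193 on the minus strand.
TUBG1: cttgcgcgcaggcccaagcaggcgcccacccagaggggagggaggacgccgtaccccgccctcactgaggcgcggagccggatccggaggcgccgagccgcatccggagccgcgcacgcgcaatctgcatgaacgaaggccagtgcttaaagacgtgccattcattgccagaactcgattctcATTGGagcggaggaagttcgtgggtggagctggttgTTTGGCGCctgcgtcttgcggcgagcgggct
TUBD1: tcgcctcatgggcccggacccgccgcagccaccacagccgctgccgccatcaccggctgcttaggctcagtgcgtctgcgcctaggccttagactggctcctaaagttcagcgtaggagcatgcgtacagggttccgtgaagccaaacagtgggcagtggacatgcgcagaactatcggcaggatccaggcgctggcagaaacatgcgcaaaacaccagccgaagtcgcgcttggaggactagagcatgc
In TUBG1 the E2F letters begin 31 bases and the CCAAT box 67 bases before the start. Of the 9 genes, 8 had an entry, with 9 promoters in all. The E2F letters (TTTGGCGC, or the same letters with C in place of 1 or both letters of GG, on either strand) were found in 1 of the 9, against 2.79% of 35116 promoters of the same length. CCAAT was found in 3 of the 9, those of TUBG1, TUBG2 and TUBGCP5, against 32.0% of all. The CHR element (TTTGAA or TTCGAA) was found in 0 of the 9, against 14.3% of all. A match describes the letters only.

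TUBG1 (chromosome 17, 42609683 to 42615238, GRCh38.p14) encodes the main gamma tubulin of dividing cells. With DMSO its log2 signal was 13.03, 12.93, 12.89, 12.73, 12.39, 12.14, 12.13 and 12.51 over the 8 times from 0 to 10 h. As deposited it was highest at 0 h, lower at each time up to 9 h, and at 10 h lay between the values of 6 and 7 h. After quantile normalization it was 12.35, 12.17, 12.19 and 12.29 at 7, 8, 9 and 10 h, so it was lowest at 8 h and stayed below 7 h at 10 h. Fitted with a smooth curve of time (a natural cubic spline in limma, Benjamini-Hochberg adjustment over the 15030 probe sets), TUBG1 was the single member called, with an adjusted p of 0.0175. That is 1 of 14 member probe sets, where 24% of all tested probe sets passed. The adjusted p was 0.000713 after quantile normalization, but the call was lost without the 8 h array (adjusted p = 0.0809) or without the 9 h array (adjusted p = 0.0700).

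TUBG1 averaged 12.42 at 6 to 8 h with DMSO and 12.95 at 0 to 4 h. The difference was -0.53 (SE 0.16) on the log2 scale, with limma's adjusted p = 0.0824. In these bulk samples, fewer cells of a phase and less RNA per cell cannot be told apart. All 3 arrays of 6 to 8 h lay below all 3 of 0 to 4 h. The difference was -0.54 (SE 0.11, adjusted p = 0.0285) after quantile normalization and -0.80 (adjusted p = 0.0261) after centring, so on those scales TUBG1 passed. TUBG1 and TUBG2 are close copies, and cross-hybridization between their transcripts was not tested.

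TUBG2 (chromosome 17, 42659284 to 42667006), the second gamma tubulin gene, is best known from the brain. Its DMSO signals were 4.99, 5.16, 5.17, 5.06, 5.35, 5.13, 4.96 and 5.70, near the level required for testing, with the highest value at 10 h. The course had an adjusted p of 0.596 in limma. TUBG2 at 6 to 8 h averaged 5.18 and at 0 to 4 h 5.11, and the windows overlapped.

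**Figure D1:**
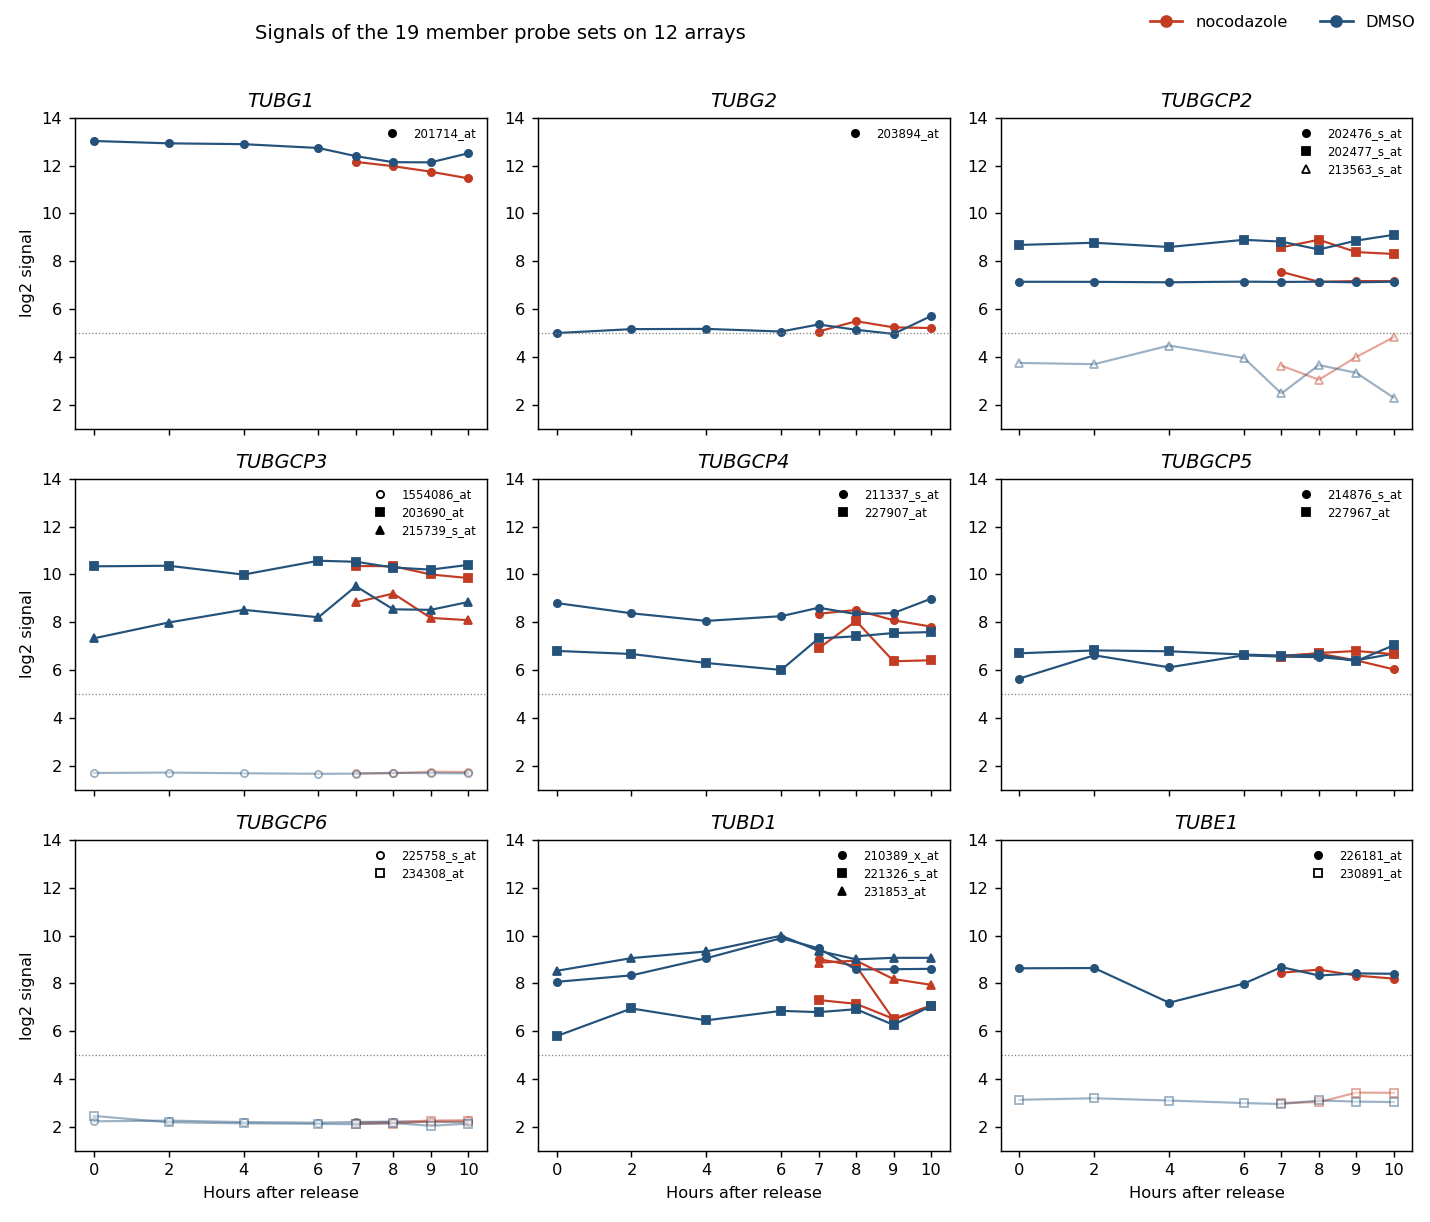
Log2 signal (vertical axis) of the 19 probe sets of the 9 genes against hours after release, with nocodazole in red and DMSO in blue. Each point is 1 array, open pale markers are probe sets below the level of 5 (dotted line) and were not tested, and TUBG1 runs between 12.13 and 13.03 with DMSO while both TUBGCP6 probe sets stay at 2.05 to 2.46 on all 12 arrays.

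TUBGCP2 and TUBGCP3 form the small complex with gamma tubulin. For TUBGCP2 (chromosome 10, 133278635 to 133312337), probe set 202477_s_at had DMSO signals of 8.68, 8.77, 8.59, 8.89, 8.82, 8.49, 8.86 and 9.10, with no order in time and a course adjusted p of 0.624 in limma. Probe set 202476_s_at of the same gene was nearly constant, at 7.11 to 7.14 on all 8 DMSO arrays. Its SD there was 0.0114, against a median of 0.290 over all tested probe sets, and 24 of the 15030 had an SD under 0.02. On the nocodazole arrays it was at 7.55, 7.14, 7.17 and 7.16, so 1 array of the 12 stood apart. The correlation between both probe sets was -0.22 over the 12 arrays, which share hours and scaling.

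For TUBGCP3 (chromosome 13, 112485011 to 112605630), the 2 tested probe sets did not follow each other (r = 0.30 over 12 arrays). Probe set 203690_at stayed between 9.99, at 4 h, and 10.57, at 6 h, with DMSO. Probe set 215739_s_at had the widest spread of the tested members over the DMSO arrays (SD 0.634), with 7.33, 7.99, 8.52, 8.21, 9.51, 8.54, 8.52 and 8.85, lowest at 0 h and highest at 7 h. It averaged 8.75 at 6 to 8 h and 7.95 at 0 to 4 h, a difference of 0.81 (SE 0.39) with limma's adjusted p = 0.219. The windows overlapped, since the 6 h value lay below that of 4 h.

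The 5 other genes whose probe sets followed TUBGCP3 215739_s_at most closely, of 15028 compared over the 12 arrays, were BAIAP2 (r = 0.961), NLN (0.946), UQCC1 (0.945), ITCH (0.941) and WDR89 (0.940). The arrays share their hours, their order in time and the shifts of the array medians, and after quantile normalization the same r values were 0.813 to 0.912. These are descriptions of 12 arrays, with no test.

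TUBGCP4, TUBGCP5 and TUBGCP6 complete the ring. TUBGCP4 (chromosome 15, 43371101 to 43409771) had DMSO signals of 8.80, 8.38, 8.06, 8.26, 8.61, 8.34, 8.38 and 8.99 on probe set 211337_s_at, lowest at 4 h and highest at 10 h. Its course had an adjusted p of 0.204 in limma as deposited and of 0.0467 after quantile normalization. On the quantile scale it was highest at 0 h, at 8.95, and lowest at 6 h, at 8.24, with 8.25 at 4 h and 8.61 at 10 h. Probe set 227907_at had 6.80, 6.67, 6.30, 6.01, 7.33, 7.41, 7.55 and 7.59. All 4 arrays from 7 h on lay above all 4 before it, but the split was seen in the values and was not tested. The course had an adjusted p of 0.0748, and of 0.0365 without the 6 h array. The correlation of both probe sets was 0.60 over 12 arrays.

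TUBGCP5 (chromosome 15, 22983025 to 23039569) had 2 tested probe sets that differed in spread. Probe set 227967_at varied little and lay between 6.38, at 9 h, and 7.04, at 10 h, with DMSO. Its 3 arrays at 6 to 8 h (6.61 to 6.65) lay below those at 0 to 4 h (6.70 to 6.82), a difference of -0.14 (SE 0.19) with an adjusted p of 0.665 in limma. Probe set 214876_s_at had 5.65 at 0 h and 6.12 to 6.69 at the other times, with an SD of 0.353 and a course adjusted p of 0.301 in limma. TUBGCP6 (chromosome 22, 50217694 to 50245023) had signals of 2.18 to 2.28 and of 2.05 to 2.46 on its probe sets over all 12 arrays, a level at which no course can be read.

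TUBD1 (chromosome 17, 59859479 to 59892943), the gene of delta tubulin, is in the study's set of cell cycle genes under G2. On probe set 210389_x_at its DMSO signals were 8.07, 8.34, 9.05, 9.89, 9.47, 8.58, 8.59 and 8.61. Probe set 231853_at had 8.53, 9.06, 9.34, 10.00, 9.36, 9.01, 9.07 and 9.07. Both were lowest at 0 h, highest at 6 h and level from 8 h on, with r = 0.92 over 12 arrays. The course had adjusted p-values of 0.0917 and 0.103 in limma, and of 0.0266 and 0.0381 after quantile normalization.

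Probe set 221326_s_at of TUBD1 had DMSO signals of 5.80, 6.95, 6.46, 6.85, 6.80, 6.92, 6.27 and 7.06. It did not follow the other probe sets of the gene, with r of 0.17 and 0.09 over 12 arrays. TUBD1 210389_x_at averaged 9.31 at 6 to 8 h and 8.49 at 0 to 4 h, a difference of 0.83 (SE 0.36, limma's adjusted p = 0.180). For 231853_at the difference was 0.48 (SE 0.29, adjusted p = 0.307) and for 221326_s_at 0.46 (SE 0.32, adjusted p = 0.378). The suffix x of 210389_x_at marks probes that may bind other transcripts, and how much of its signal is TUBD1 was not tested.

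TUBE1 (chromosome 6, 112070663 to 112087482), the gene of epsilon tubulin, had DMSO signals of 8.63, 8.64, 7.19, 7.99, 8.68, 8.33, 8.42 and 8.40 on probe set 226181_at. The 4 h value was the lowest, and 6 h the next lowest. The 4 h array is the one with the high 18S rRNA signal given above, and its part in the result was not tested. TUBE1 averaged 8.34 at 6 to 8 h and 8.16 at 0 to 4 h (difference 0.18, SE 0.39), and without the 4 h array the difference was -0.30. The course had an adjusted p of 0.248 in limma, and the windows overlapped.

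Between 6 to 8 h and 0 to 4 h, none of the 14 member probe sets passed in limma (0 called), where 7.42% of all tested probe sets were called higher and 0.566% lower. At an unadjusted p under 0.05 there were 2 members and 4164 probe sets in all. The median difference was 0.21 over the members and 0.12 over all. By simple order, 0 members had all arrays of 6 to 8 h above those of 0 to 4 h, against 24.6% of all, and 2 had them below, against 8.47%. After quantile normalization 1 member was called lower, TUBG1, where 6.51% of all were called higher and 3.42% lower. By order, 0 members then lay above, against 15.1% of all, and 4 below (TUBG2 and TUBGCP2 202476_s_at in addition), against 23.5%. As deposited TUBGCP2 202476_s_at was nearly constant, at 7.12 to 7.14 from 0 to 8 h. After quantile normalization the member median was -0.02 and that of all probe sets -0.05, so the sign of the median turned for both. Over the course, quantile normalization gave 4 of 14 members (TUBG1, TUBGCP4 and 2 probe sets of TUBD1), where 38.1% of all passed.

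**Figure D2:**
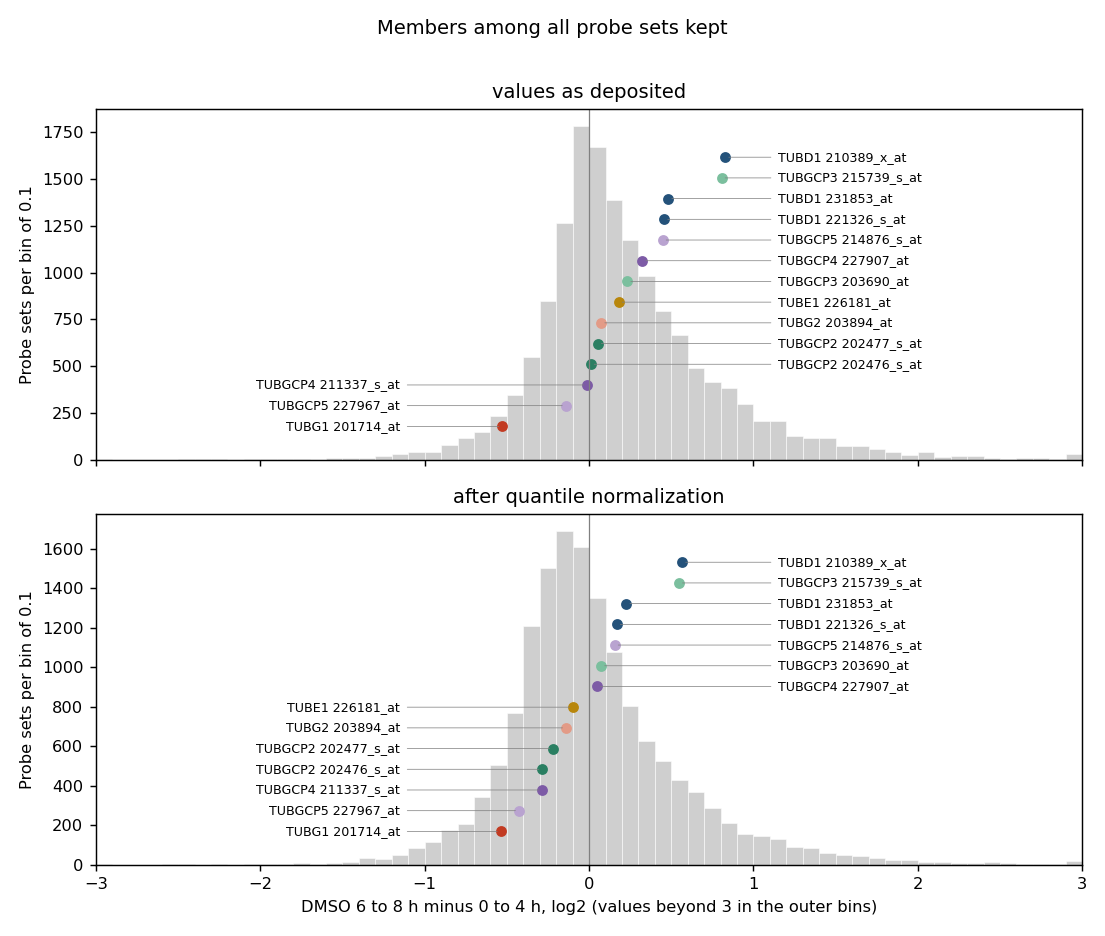
Difference between 6 to 8 h and 0 to 4 h with DMSO (horizontal axis, log2) for the 14 tested member probe sets (points, placed at any height for legibility) over the number of all 15030 tested probe sets per bin of 0.1 (grey bars), as deposited above and after quantile normalization below. TUBG1 lies lowest on both scales, at -0.53 and -0.54, and TUBD1 210389_x_at highest, at 0.83 and 0.57.

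From 6 to 8 h on to 9 to 10 h with DMSO, 0 of 14 member probe sets were called, where 0% of all were called higher and 0% lower. At an unadjusted p under 0.05 there were 0 members and 813 probe sets in all. TUBD1 210389_x_at averaged 8.60 at 9 to 10 h and 9.31 at 6 to 8 h, a difference of -0.71 (SE 0.40). TUBGCP4 227907_at averaged 7.57 and 6.92, a difference of 0.66 (SE 0.40). Both had an adjusted p of 0.872 in limma. The median difference was -0.02 over the members and 0.07 over all.

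Nocodazole was compared with DMSO at the same hours. TUBG1 had 12.15, 11.97, 11.74 and 11.46 at 7, 8, 9 and 10 h with nocodazole, against 12.39, 12.14, 12.13 and 12.51 with DMSO. It was lower with nocodazole at all 4 hours, with the smallest difference, -0.17, at 8 h and the largest, -1.05, at 10 h. The mean was 11.83 with nocodazole and 12.29 with DMSO, a difference of -0.46 (SE 0.17) with an adjusted p of 0.394 in limma with time as a block. As deposited, the median difference over all tested probe sets was 0.09 at 8 h and -0.65 at 10 h. For TUBG1 after quantile normalization the difference was -0.31, of the same sign at all 4 hours and largest, -0.56, at 10 h. After centring it was -0.13, with -0.35 at 8 h, 0.09 at 9 h and -0.19 at 10 h. On that scale the direction at 9 h flipped, and the largest gap was at 8 h.

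TUBD1 210389_x_at had 9.02, 8.73, 6.49 and 7.05 with nocodazole, against 9.47, 8.58, 8.59 and 8.61 with DMSO. The arrays lay close together at 7 and 8 h and far apart at 9 and 10 h. The difference was -1.83 at 9 and 10 h and -0.15 at 7 and 8 h. The change of the difference, tested as an interaction in limma, was -1.68 (SE 0.37) with an adjusted p of 0.0345. This was the 1 member of 14 called, where 1.39% of all tested probe sets were called higher and 9.07% lower. After quantile normalization the change was -1.05 with an adjusted p of 0.0826, and without the 8 h arrays it was -1.38 with an adjusted p of 0.0636, so the call was lost in both cases. After centring it was -1.01 with an adjusted p of 0.0134.

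TUBD1 231853_at had 8.87, 8.95, 8.18 and 7.94 with nocodazole, against 9.36, 9.01, 9.07 and 9.07 with DMSO. It was lower with nocodazole at all 4 hours, on all 3 scales, and averaged 8.49 with nocodazole and 9.13 with DMSO (difference -0.64, SE 0.23, adjusted p = 0.394 in limma). The change of its difference between the pairs of hours was -0.73 (SE 0.32, adjusted p = 0.133). TUBD1 221326_s_at ran the other way, with 7.31, 7.15, 6.52 and 7.08 with nocodazole, against 6.80, 6.92, 6.27 and 7.06 with DMSO. It was above DMSO at all 4 hours (difference 0.25, SE 0.20, adjusted p = 0.463). The 3 probe sets of TUBD1 thus gave no single direction under nocodazole.

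TUBGCP4 227907_at had 6.91, 8.06, 6.37 and 6.41 with nocodazole, against 7.33, 7.41, 7.55 and 7.59 with DMSO. It was above DMSO at 8 h, below it at 7 h, and further below it, by a difference of -1.18, at both 9 and 10 h. The change of the difference was -1.29 (SE 0.42, limma's adjusted p = 0.0731). After quantile normalization the differences at 9 and 10 h were -0.80 and -0.47. The change was then -0.74 (adjusted p = 0.188), and -0.62 (adjusted p = 0.199) after centring. TUBGCP4 211337_s_at had 8.36, 8.51, 8.08 and 7.82 with nocodazole, against 8.61, 8.34, 8.38 and 8.99 with DMSO. Its largest gap, -1.17, was at 10 h, where the median over all tested probe sets was -0.65.

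Among the other subunits and tubulins, the difference between nocodazole and DMSO had an absolute size of at most 0.28 on the log2 scale as deposited and an adjusted p of 0.452 or more in limma. On the other scales TUBGCP2 202476_s_at went past this size, with 0.41 after quantile normalization and 0.45 after centring. So did TUBGCP5 227967_at, with 0.31 and 0.35, and TUBG2 after centring, with 0.29. TUBGCP2 202476_s_at was nearly constant as deposited, and such a signal takes on the shift of the arrays on those scales. As deposited its difference was 0.42 at 7 h and 0.02 at 10 h, and at 10 h it was 0.76 after quantile normalization and 0.87 after centring. TUBE1 had 8.45, 8.58, 8.33 and 8.20 with nocodazole, against 8.68, 8.33, 8.42 and 8.40 with DMSO. As deposited its largest difference, 0.24, was at 8 h, where it was 0.03 after quantile normalization and 0.06 after centring. On those scales the largest difference of TUBE1 was at 10 h, with 0.62 and 0.65. TUBGCP3 203690_at had 10.35, 10.35, 10.00 and 9.85 with nocodazole, against 10.53, 10.29, 10.20 and 10.40 with DMSO. For TUBG2, TUBE1, both probe sets of TUBGCP3, TUBGCP2 202477_s_at and TUBGCP5 214876_s_at the sign of the difference was negative as deposited and positive both after quantile normalization and after centring.

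**Figure D3:**
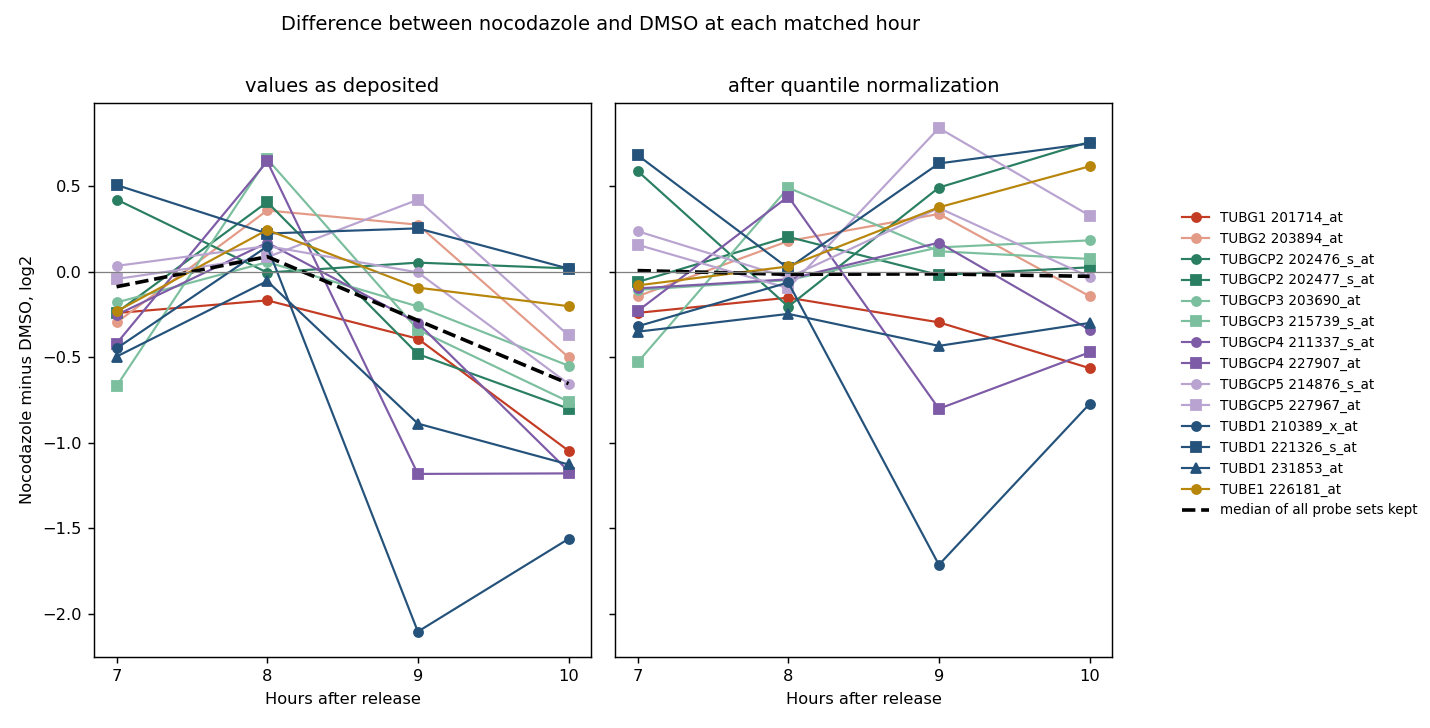
Nocodazole minus DMSO (vertical axis, log2) at 7, 8, 9 and 10 h for the 14 tested member probe sets, as deposited on the left and after quantile normalization on the right, with the median of all 15030 tested probe sets as a dashed line. As deposited the median of all is -0.28 at 9 h and -0.65 at 10 h, and TUBD1 210389_x_at reaches -2.10 and -1.56 at these hours.

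Over the 4 hours, 0 of 14 member probe sets were called between nocodazole and DMSO in limma, where 0% of all were called higher and 0% lower. At an unadjusted p under 0.05 there were 3 members (TUBG1 and 2 probe sets of TUBD1) and 1488 probe sets in all. The median difference was -0.25 over the members and -0.23 over all as deposited, and 0.04 and -0.01 after quantile normalization. As deposited, 1 member lay above DMSO at all 4 hours, against 3.09% of all, and 2 lay below, against 15.4%. After quantile normalization 1 lay above, against 10.5%, and 3 lay below, against 13.6%. At 9 and 10 h together, 10 of 14 members were below DMSO (71.4%), and so were 71.2% of all tested probe sets. After quantile normalization these shares were 28.6% and 41.8%.

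Of 22 partners listed for the ring complex and for delta and epsilon tubulin, 19 had a probe set of their own and 17 were tested. Over the DMSO course 3 of these 17 genes were called in limma: HAUS1 (adjusted p = 0.00649), HAUS6 (0.0218) and PCNT (0.0427). Over all tested probe sets 24% passed. After quantile normalization and after centring the count was 7 and 8 of 17, where 5728 and 6130 of all 15030 tested probe sets passed. HAUS1 and HAUS6 are subunits of augmin, which recruits the gamma tubulin ring to the side of spindle microtubules, and PCNT is the scaffold pericentrin of the centrosome. HAUS1 had DMSO signals of 11.69, 11.50, 11.33, 10.93, 10.83, 10.53, 10.67 and 10.93. It fell at 6 to 8 h relative to 0 to 4 h, by 0.74 on the log2 scale (SE 0.15, adjusted p = 0.0310), with all 3 later arrays below the earlier ones.

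HAUS6 222685_at had DMSO signals of 9.67, 9.70, 9.53, 10.16, 10.64, 10.33, 10.47 and 10.60. It rose at 6 to 8 h relative to 0 to 4 h, by 0.74 (SE 0.15, adjusted p = 0.0299), and another of its 3 probe sets passed too. These 2 subunits of 1 complex moved in opposite directions on all 3 scales. PCNT 203660_s_at had 8.19, 7.42, 7.35, 7.80, 8.86, 8.42, 8.42 and 9.06, with a dip from 2 to 6 h, and differed by 0.70 (SE 0.34, adjusted p = 0.215) between the windows. HAUS1, lower, and HAUS6, higher, were the 2 partner genes of 17 that passed between the windows, where 7.42% of all probe sets were called higher and 0.566% lower. After centring HAUS2 and HAUS3, both lower, passed too (4 of 17), where 833 of all 15030 probe sets were called higher and 1060 lower. As deposited, 0 of 17 passed between nocodazole and DMSO, where 1 had an unadjusted p under 0.05. The median difference between the windows was -0.07 over the partner genes and 0.12 over all probe sets, and for the partners -0.30 after quantile normalization and -0.34 after centring. Between nocodazole and DMSO it was -0.35 over the partner genes and -0.23 over all, and for the partners -0.06 and -0.02 on the other scales.

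**Figure D4:**
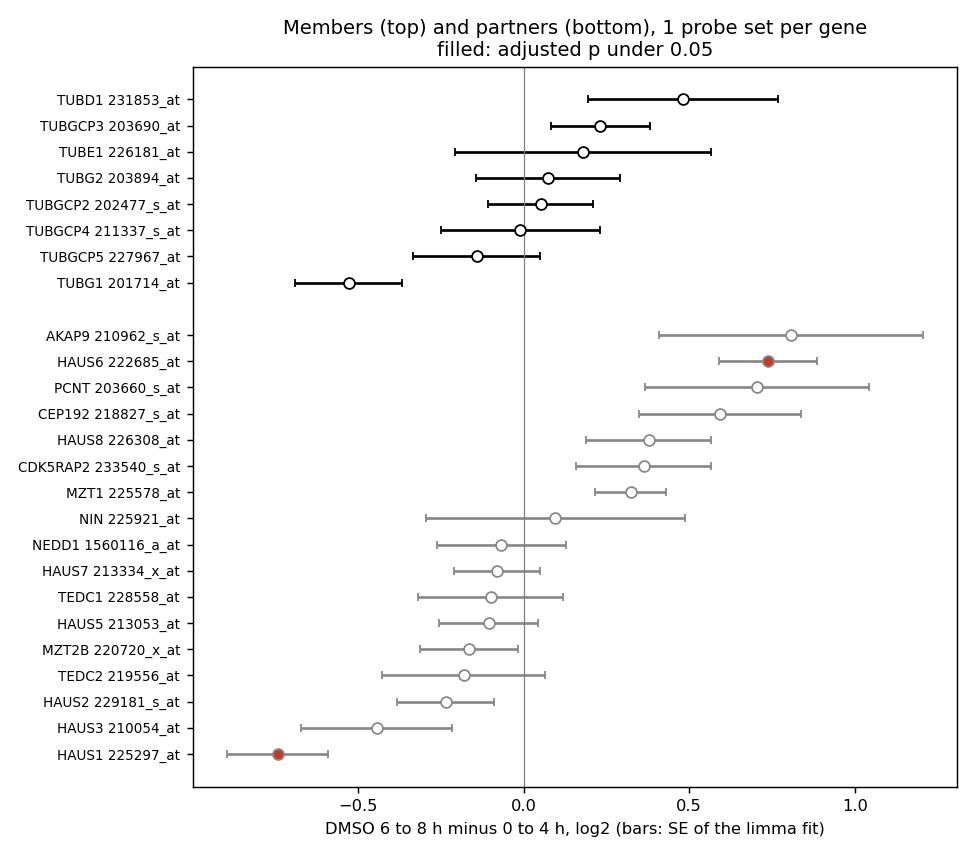
Difference between 6 to 8 h and 0 to 4 h with DMSO (horizontal axis, log2) for 1 probe set per gene of the 8 tested members (top) and the 17 tested partners (bottom), with bars of 1 SE from limma. Filled points passed the adjusted test, and they are HAUS6 at 0.74 and HAUS1 at -0.74.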

How the data were processed

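The authors hybridized total RNA of 12 cultures to Affymetrix U133 Plus 2.0 arrays and deposited log2 signals per probe set, computed with GC-RMA. Its version is not given, and that the logarithm has base 2 was inferred from the span of the signals. All 12 columns were used. The array's annotation gave 41097 probe sets 1 symbol, 1801 several and 11777 none. Those with 1 symbol that reached 5 on the log2 scale on 2 or more arrays (15030, of 9130 genes) were fitted with limma 3.58.1 (R 4.3.3), using an intensity trend and a Benjamini-Hochberg adjusted p under 0.05 as the call. The DMSO course was fitted by a natural cubic spline with 3 degrees of freedom, windows by their means, and the nocodazole effect over 7 to 10 h with the hour as a block. Any 2 arrays correlated with r of 0.938 to 0.995. Precision is limited by having 1 array per condition. The fits were tested on simulated data. Members, partners, markers and tests were chosen with earlier results of these data known. All 9 members, up to 4 partners with the smallest adjusted p per comparison, and the 5 genes most like the tested member probe set of widest spread over the DMSO arrays are named. Alternatives were no level filter, a filter at 7, quantile normalization, 1 probe set per gene, a fit without the intensity trend, 2 spline degrees of freedom, a fit without the hour block and leaving out each time. Centring, and leaving out hours in the interaction, were chosen after seeing the data. Promoters were searched and plots drawn with Python 3.11.15, pandas 2.3.3, numpy 2.4.6 and matplotlib 3.10.9.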

Additional observations from a re-analysis of the deposited data

Results flagged for a closer look

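For TUBD1 210389_x_at the difference between nocodazole and DMSO was not the same early and late in the treatment, with a change of -1.68 on the log2 scale (SE 0.37, limma's adjusted p = 0.0345) between 9 and 10 h and 7 and 8 h. The other tested probe sets of TUBD1 had changes of -0.73 (231853_at, adjusted p = 0.133) and -0.23 (221326_s_at, adjusted p = 0.653). An effect of the drug and a difference in phase between the cultures cannot be told apart here.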

How the results depend on the processing

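Over the DMSO course, 1 member probe set and 3600 of all tested probe sets were called. Members called were 2 with no level filter, 2 with a filter at 7, 2 with 2 spline degrees of freedom, 4 after quantile normalization, 4 after centring and 0 to 2 with a time left out. With no filter TUBGCP6 234308_at joined TUBG1 (limma's adjusted p = 0.0411), at signals where no course can be read. All 41097 probe sets with 1 symbol entered the fits with no filter. No count over all probe sets is given for the filter at 7 or for 2 spline degrees of freedom. The counts over all were 2240 with no filter, 5728 after quantile normalization, 6130 after centring, 1993 with 1 probe set per gene and 1353 (without 0 h) to 4212 (without 7 h). Without 8 h the member called was TUBD1 210389_x_at (adjusted p = 0.0460), without 9 h there was none, and without 7 h TUBGCP3 215739_s_at joined TUBG1 (adjusted p = 0.0138).

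Between 6 to 8 h and 0 to 4 h, 0 members and 1200 of all were called. TUBG1 was called after quantile normalization and after centring (1 member each), and TUBG1 and TUBGCP4 227907_at without 6 h (0 to 2 members with a time left out). The counts over all were 9 with no filter, 1893 after centring, 552 with 1 probe set per gene, and 0 (without 8 h) to 3021 (without 6 h). Reversed differences after quantile normalization were -0.140 for TUBG2, -0.284 for TUBGCP2 202476_s_at, -0.218 for TUBGCP2 202477_s_at and -0.0965 for TUBE1. After centring the same probe sets had -0.200, -0.265, -0.222 and -0.0948, and TUBGCP3 203690_at had -0.0418. With a time left out the difference was -0.0125 to 0.135 for TUBG2 and -0.303 (without 4 h) to 0.423 for TUBE1. Between 9 to 10 h and 6 to 8 h, 0 were called, 7 with no filter and 0 to 1 with a time left out. There the difference was -0.591 to 0.199 for TUBD1 221326_s_at and -0.0181 to 0.583 for TUBGCP4 211337_s_at with a time left out.

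Between nocodazole and DMSO, 0 were called, and 11 with a filter at 7, 26 after quantile normalization, 4 after centring and 12 with no time block, none of them members. Reversed differences were 0.0579 for TUBG2, 0.0377 for TUBGCP2 202477_s_at, 0.0427 for TUBGCP3 203690_at, 0.0390 for TUBGCP3 215739_s_at, 0.136 for TUBGCP5 214876_s_at and 0.236 for TUBE1 after quantile normalization, and 0.290, 0.0521, 0.112, 0.0536, 0.212 and 0.260 for the same probe sets after centring. With an hour left out the difference was -0.174 to 0.112 for TUBG2, -0.110 to 0.155 for TUBGCP5 227967_at and -0.208 to 0.0603 for TUBGCP5 214876_s_at.

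For the change of the nocodazole difference, 1 member and 1572 of all were called. Members called were 6 with no filter, 2 with a filter at 7, 0 after quantile normalization, 0 with 1 probe set per gene (where 231853_at stands for TUBD1) and 0 (without 8 h) to 3 (without 9 h). The counts over all were 21408 with no filter, 3233 with a filter at 7, 2448 after centring, 1004 without the intensity trend and 448 (without 10 h) to 6454 (without 9 h). The fit with no filter took all 41097 probe sets with 1 symbol. Its members called included TUBGCP3 1554086_at, TUBGCP6 225758_s_at and 234308_at and TUBE1 230891_at, with changes of 0.063, 0.093, 0.14 and 0.39. These reached at most 3.43 on any array, where no change can be read. The others were TUBD1 210389_x_at and TUBGCP4 227907_at. After quantile normalization 1273 of all were called. No count over all is given for 1 probe set per gene. The change was positive for 1 of 14 members as deposited, 8 after quantile normalization and 9 after centring. Reversed values after quantile normalization were 0.0796 for TUBG2, 0.433 for TUBGCP2 202476_s_at, 0.240 for TUBGCP3 203690_at and 0.117 for TUBGCP3 215739_s_at. Those of TUBGCP5 214876_s_at, TUBD1 221326_s_at and TUBE1 were 0.0704, 0.341 and 0.521. After centring the same probe sets, in this order, had 0.526, 0.497, 0.355, 0.125, 0.248, 0.440 and 0.516, and TUBG1 had 0.155. The cause of these changes was not tested. The labels number no replicates, so nocodazole and DMSO arrays were paired by hour alone.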
